A study of Mus musculus with 6 samples.

Results

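The serpin family was followed in the liver transcriptome of wild-type (WT) mice and of *Fmo5*-/- mice, which lack flavin-containing monooxygenase 5. Its members were chosen by name, as the genes whose symbol begins with Serpin, without the 5 symbols marked as pseudogenes. This gave 63 genes of the 54446 that were counted. RNA-seq was done on 3 WT and 3 *Fmo5*-/- livers, with 1 library of single reads per mouse, and in each genotype the livers are numbered here in the order of deposit. Both genotypes consisted of males aged 32 weeks, given as C57BL/6 in the labels and as C57BL/6J in the study's methods, that had free access to standard chow, and had their livers collected in the morning. The genotypes were kept in adjacent cages, so that genotype and cage cannot be told apart. Whole liver was used, in which fewer cells of a type and less RNA per cell cannot be told apart.

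Serpins are proteins of a shared fold. Most of them inhibit serine proteases, and some inhibit cysteine proteases: the protease cuts an exposed loop of the serpin, which then changes shape and traps the enzyme. Hepatocytes secrete much of the serpin that circulates in plasma, where it restrains the proteases of clotting, fibrinolysis, complement and neutrophils. Other members have no known protease target and carry hormones or assist in folding, and the clade B members remain inside cells. The mouse has several copies of genes that are single in humans, among them alpha-1-antitrypsin (*Serpina1a* to *Serpina1f*) and antichymotrypsin (the *Serpina3* genes).

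Counts on genes lay between 44886286 and 52338675 per library, and a gene with no count in a library could still hold up to 3 counts, which is 0.0573 to 0.0668 CPM (counts per 1e6 counts) and covers counting error only. *Fmo5* had normalized counts (counts scaled to the mean library size) of 39808, 37405 and 30240 in WT liver and 1071, 1102 and 1194 in *Fmo5*-/- liver. The summed level of 5 hepatocyte markers overlapped between the genotypes, at 42520 to 56020 RPKM (reads per kilobase of transcript, scaled to 1e6 counts) in WT and 42400 to 55770 in *Fmo5*-/- liver. Markers of immune cells did not overlap. The sum of 6 Kupffer cell markers was 61.2 to 76.8 in WT and 103 to 161 in *Fmo5*-/- liver. That of 6 T and NK cell markers was 0.930 to 2.05 and 2.58 to 10.6, and that of 6 neutrophil markers was 1.61 to 4.65 and 4.78 to 10.2. Each marker of these lists had counts, but only 2 of the 6 neutrophil markers had enough to be tested. *Fmo5*-/- mouse 3 was the lowest of the *Fmo5*-/- mice on all 3 lists.

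Of the 63 members, 24 lie on chromosome 12, all of them clade A genes of a cluster that spans chr12:103614786-104414329 (mm10), 15 lie on chromosome 13 and 14 on chromosome 1. Promoter sequences (250 bases before to 50 bases after a start, RefSeq, GRCm38.p6, the same build as mm10) were at hand for 53 members. Those of *Serpina1a*, *Serpina1e*, *Serpina3f*, *Serpina3g* and *Serpinb9* are given because the results turn on these genes, and they and the motifs searched were picked after the values had been seen. The first pair belongs to alpha-1-antitrypsin genes that differ in how much they vary between mice. Capitals mark GTTAAT, the monomer site of the liver factor HNF1, at chr12:103863570-103863869 and chr12:103956848-103957147, both on the minus strand.
Serpina1a: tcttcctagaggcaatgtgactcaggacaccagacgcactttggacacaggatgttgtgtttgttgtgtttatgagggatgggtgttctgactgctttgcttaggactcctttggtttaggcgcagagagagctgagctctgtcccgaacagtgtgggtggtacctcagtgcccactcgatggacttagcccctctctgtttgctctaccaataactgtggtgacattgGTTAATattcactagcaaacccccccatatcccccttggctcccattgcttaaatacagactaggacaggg
Serpina1e: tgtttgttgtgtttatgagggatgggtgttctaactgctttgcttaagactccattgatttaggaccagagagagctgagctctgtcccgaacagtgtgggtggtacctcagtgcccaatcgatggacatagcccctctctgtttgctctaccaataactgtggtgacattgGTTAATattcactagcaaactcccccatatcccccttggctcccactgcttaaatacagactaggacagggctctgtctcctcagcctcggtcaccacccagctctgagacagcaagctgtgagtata
Over the 243 positions at which these windows align they share 233 bases, or 95.9%. Their annotated starts differ, so that the site begins at position -21 from the start in *Serpina1a* and at -78 in *Serpina1e*. All of *Serpina1a* to *Serpina1e* hold it, as do 12 of the 62 promoters of members and 7.1% of 32817 promoters of the same length in the genome.

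The next 3 promoters belong to the members that were higher in *Fmo5*-/- liver at an adjusted p under 0.05 in DESeq2, though not in edgeR. Capitals mark TTCNNNGAA, the spacing to which STAT factors bind, in *Serpina3f* (chr12:104214294-104214593, plus strand) and *Serpina3g* (chr12:104235897-104236196, plus strand), and GAAANNGAAA, the core of the interferon-stimulated response element (ISRE), in *Serpinb9* (chr13:33004291-33004590, plus strand).
Serpina3f: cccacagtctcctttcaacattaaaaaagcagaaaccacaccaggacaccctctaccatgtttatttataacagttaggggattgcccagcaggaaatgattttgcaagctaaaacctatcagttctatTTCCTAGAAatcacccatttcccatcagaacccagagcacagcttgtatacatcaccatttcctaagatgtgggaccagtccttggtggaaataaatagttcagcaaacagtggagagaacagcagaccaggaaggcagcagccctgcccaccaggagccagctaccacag
Serpina3g: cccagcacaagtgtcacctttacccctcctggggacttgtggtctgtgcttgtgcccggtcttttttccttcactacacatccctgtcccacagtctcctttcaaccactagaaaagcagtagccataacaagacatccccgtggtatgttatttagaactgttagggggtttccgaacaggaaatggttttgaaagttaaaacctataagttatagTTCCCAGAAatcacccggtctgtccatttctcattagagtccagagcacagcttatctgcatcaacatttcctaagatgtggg
Serpinb9: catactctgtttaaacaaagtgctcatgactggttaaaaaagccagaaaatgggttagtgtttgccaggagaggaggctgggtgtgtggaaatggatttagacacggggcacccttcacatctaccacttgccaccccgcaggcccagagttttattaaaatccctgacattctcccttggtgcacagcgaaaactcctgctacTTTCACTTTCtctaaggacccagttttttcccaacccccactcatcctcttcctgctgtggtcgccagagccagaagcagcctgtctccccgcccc
The STAT letters begin at position -121 in *Serpina3f* and at -33 in *Serpina3g*, and those of the ISRE at -46 in *Serpinb9*. From another annotated start of *Serpina3f*, the same STAT letters begin at -210. The *Serpina3f* and *Serpina3g* windows share 79% of their bases over the 214 positions at which they align. Of promoters of this length, 8.29% hold the STAT letters and 3.43% those of the ISRE; among the 62 promoters of members, 11 and 3 do. The letters were searched on both strands, along with the full HNF1 palindrome (3 promoters in the genome, 0 of members), TATAAA (13.6% of promoters, 18 of members), TTGCNNAA of C/EBP (10.8%, 17 of members), the NF-kB site (8.46%, 3 of members) and the E-box CACGTG (7.15%, 0 of members). The printed windows also hold some of these other letters, which are not in capitals. They are TATAAA and TTGCNNAA in *Serpina3f*, the NF-kB site in *Serpina3g*, and TTGCNNAA in *Serpina1a* and *Serpina1e*. A match is a description of the letters in a window and not of binding.

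Of the 63 members, 33 had enough counts to be tested. None of the 33 differed between the genotypes in edgeR's quasi-likelihood test at a Benjamini-Hochberg adjusted p under 0.05, a level that 1.37% of all 16734 genes tested passed. At an unadjusted p under 0.05 in edgeR, 8 members passed (24.2% of the 33, beside 21.8% of all genes), of which 4 had a higher and 4 a lower mean in *Fmo5*-/- liver. DESeq2, the tool of the study, gave 30 members an adjusted p, and for 6 of them (20%) it was under 0.05, beside 8.96% of all genes. *Serpina3f*, *Serpina3g* and *Serpinb9* were higher in *Fmo5*-/- liver, a direction that 4.75% of all genes took in DESeq2. *Serpina12*, *Serpinb1a* and *Serpine2* were lower, as were 4.21% of all genes. The study also left out genes with a mean count under 500, a limit that only 2 of the 6, *Serpina12* and *Serpine2*, reached. The values of WT and *Fmo5*-/- mice did not overlap for 8 members, or 24.2%, beside 27.4% of all genes tested. The result of edgeR depended on its filter. With every gene of at least 1 count kept, 52 members were tested. Of these, 8 had an adjusted p under 0.05, beside 5.82% of all genes. *Serpina5*, too low in counts for the main filter, was among the 8, while *Serpina3g* and *Serpina12* were not. The median log2 fold change, *Fmo5*-/- over WT, was -0.03 over the 33 members and 0.01 over all genes.

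**Figure D1:**
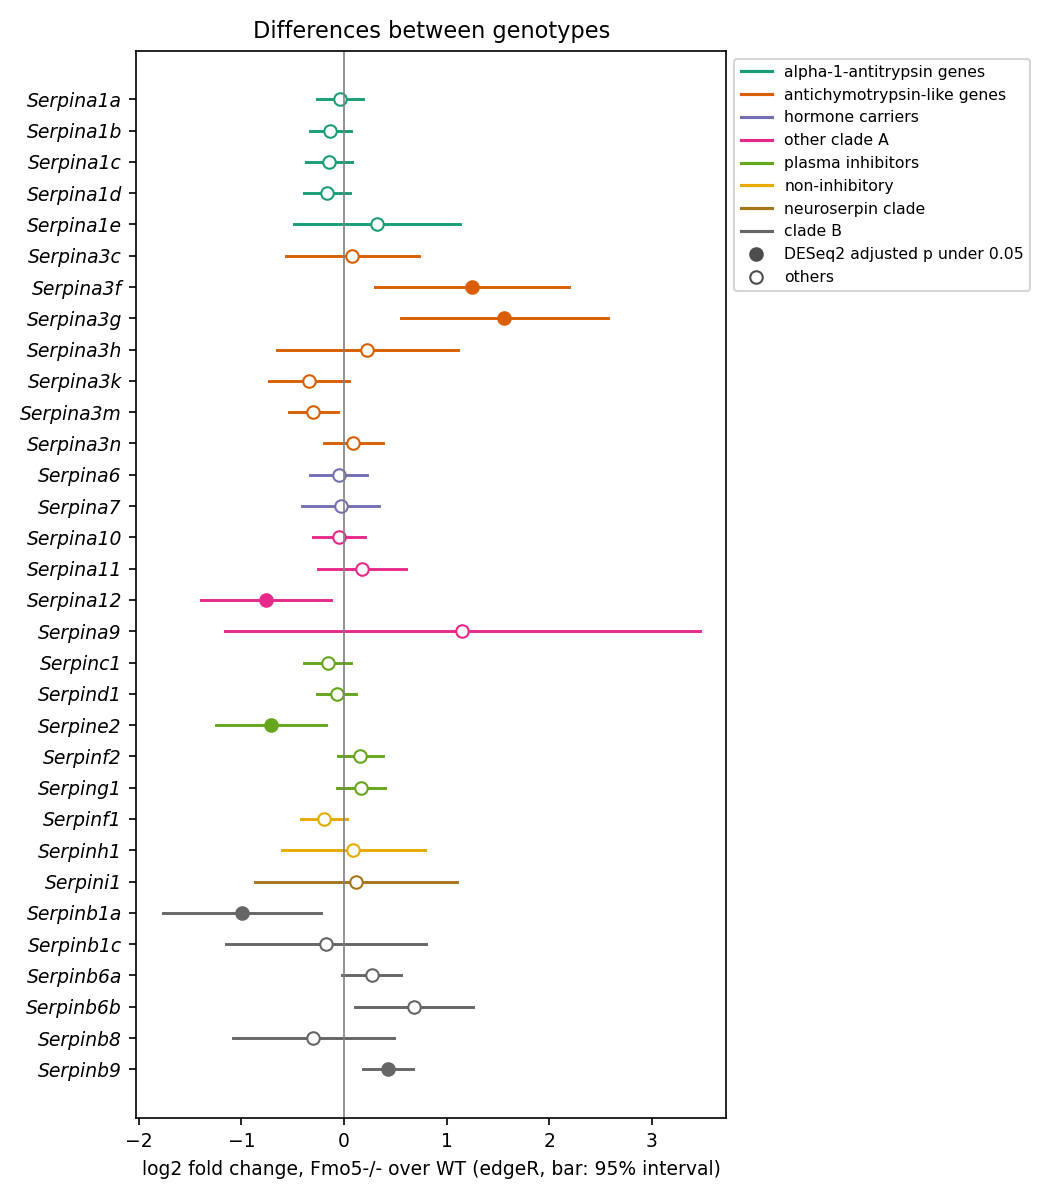
Log2 fold change, *Fmo5*-/- over WT, of 32 tested serpin genes (x axis) by group of genes (colour); bars are 95% intervals from edgeR and filled points have an adjusted p under 0.05 in DESeq2. The fold changes run from -0.99 (*Serpinb1a*) to 1.56 (*Serpina3g*), and most intervals include 0.

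Serpin transcripts were among the most abundant of the liver. They took 2.34%, 2.86% and 3.16% of the counts on genes in the WT mice and 2.64%, 2.91% and 3.04% in the *Fmo5*-/- mice, and the ranges overlap. Per kilobase of transcript, the highest member was *Serpina1e*, with 4544 ± 2193 RPKM in WT and 5677 ± 402 in *Fmo5*-/- liver (SD, n = 3). It was followed by *Serpina3k* (4155 ± 742 and 3282 ± 647), whose values overlap those of *Serpina1e* in WT mice. *Serpina3k* was the higher of the pair in WT mice 1 and 2, so that the order in WT liver rests on WT mouse 3, while *Serpina1e* was the higher in each *Fmo5*-/- mouse. *Serpina1b* (2827 ± 33.8 and 2575 ± 102) and *Serpina1d* (1631 ± 34.1 and 1454 ± 134) came next, then *Serpina1a* (878 ± 91.0 and 855 ± 13.2), *Serpina1c* (754 ± 20.8 and 679 ± 67.7) and *Serpinc1* (515 ± 31.98 and 461 ± 39.3). *Serpinf2*, *Serping1* and *Serpinf1* followed at 327 ± 23.2, 323 ± 18.0 and 286 ± 9.33 in WT liver, and the former pair do not differ beyond their spread. The level of *Serpinc1* rests on a long annotated transcript of 4970 bases, so that its level and rank per kilobase may be too low, and the levels of *Serpina1a* to *Serpina1e* rest on reads that map to 1 place: only 26.4% of the read-length stretches of *Serpina1c*, 50.7% of *Serpina1a*, 62.9% of *Serpina1d*, 80.3% of *Serpina1e* and 81.0% of *Serpina1b* occur in no other gene.

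**Figure D2:**
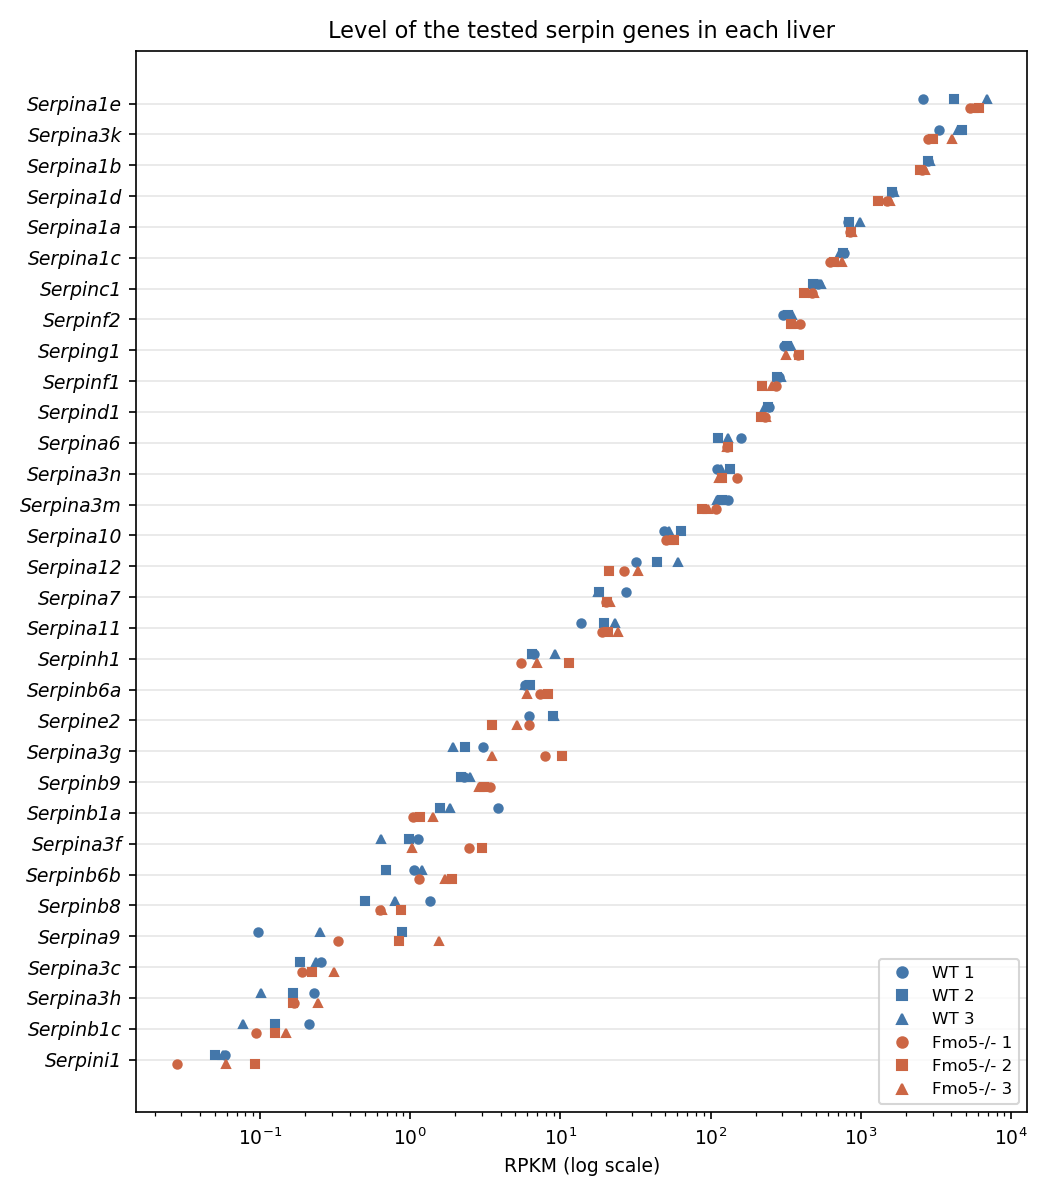
Level of 32 tested serpin genes in RPKM (x axis, log scale) in each of the 6 livers (points). Mean levels span from under 0.1 for *Serpini1* to 4544 in WT and 5677 in *Fmo5*-/- liver for *Serpina1e*, and the points of the genotypes lie close together for most genes.

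Alpha-1-antitrypsin, the product of the *Serpina1* genes, is the main plasma inhibitor of neutrophil elastase. *Serpina1e* had normalized counts of 162737, 262270 and 436468 in WT mice 1, 2 and 3 and of 336202, 386249 and 353714 in the *Fmo5*-/- mice. WT mouse 1 was the lowest and WT mouse 3 the highest of all 6, and the *Fmo5*-/- mice lay between WT mice 2 and 3. The log2 fold change was 0.32 (SE 0.33, edgeR adjusted p = 0.633). It moved from 0.04 to 0.76 as 1 mouse at a time was left out. *Serpina1b*, in contrast, varied by a factor of 1.02 between the WT mice. Its normalized counts were 191759, 190359 and 194848 in WT and 174711, 168471 and 182369 in *Fmo5*-/- liver, without overlap (log2 fold change -0.13, SE 0.09, edgeR adjusted p = 0.418). *Serpina1d* also did not overlap, with 109115, 110194 and 113564 counts in WT and 102031, 88653 and 106033 in *Fmo5*-/- liver (log2 fold change -0.17, SE 0.10, adjusted p = 0.372). *Serpina1c* (51138, 50541 and 48508 against 41305, 43967 and 50072, log2 fold change -0.15, SE 0.10, adjusted p = 0.418) and *Serpina1a* (54133, 55412 and 65176 against 55925, 56654 and 57664, log2 fold change -0.04, SE 0.10, adjusted p = 0.866) overlapped. *Serpina1e* made up 28.6%, 39.2% and 50.8% of the counts on *Serpina1a* to *Serpina1e* in the WT mice, and 47.3%, 51.9% and 47.2% in the *Fmo5*-/- mice. Summed over these 5 genes, the log2 ratio of the means was 0.07. The sums were 568882, 668776 and 858563 in the WT mice and 710174, 743993 and 749853 in the *Fmo5*-/- mice. All *Fmo5*-/- sums lay between those of WT mice 2 and 3, so that the sign of this ratio is not settled. *Serpina1f* had 0 counts in all 6 libraries.

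**Figure D3:**
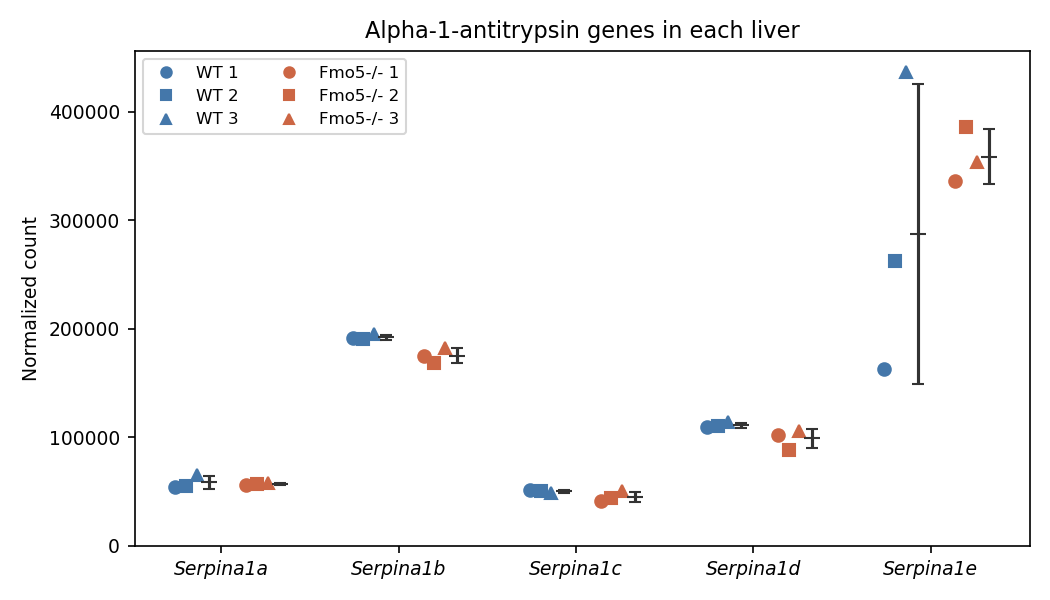
Normalized counts of the 5 detected alpha-1-antitrypsin genes (x axis) in each WT and *Fmo5*-/- liver (points), with the mean and SD of each genotype to the right of its points. *Serpina1e* ranges from 162737 to 436468 counts among the WT mice, whereas the other genes vary little between mice.

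The antichymotrypsin-like *Serpina3* genes held both the members with the highest fold changes that passed in DESeq2 and some of the most abundant members. *Serpina3g*, an intracellular inhibitor of lysosomal cathepsins that is known from lymphocytes and macrophages, had normalized counts of 270, 204 and 170 in WT and 690, 901 and 309 in *Fmo5*-/- liver. Each *Fmo5*-/- mouse was above each WT mouse, and *Fmo5*-/- mouse 3 was the nearest to them. The log2 fold change was 1.56 (SE 0.41, 95% interval 0.55 to 2.57, edgeR adjusted p = 0.109, DESeq2 adjusted p = 0.0191), or 2.95-fold. *Serpina3f*, its neighbour on the chromosome, had 123, 108 and 70.5 counts in WT and 271, 330 and 112 in *Fmo5*-/- liver. Mouse 3 of the *Fmo5*-/- group lay within the WT range, and the log2 fold change was 1.24 (SE 0.40, edgeR adjusted p = 0.138, DESeq2 adjusted p = 0.00761). The order of the 6 mice within each genotype was the same for both genes, with *Fmo5*-/- mouse 2 highest and WT mouse 3 lowest. Without *Fmo5*-/- mouse 3, the log2 fold changes were 1.89 (edgeR adjusted p = 0.00306) and 1.58 (adjusted p = 0.0085), and these were the only 2 members to pass in that fit, in which 4.45% of all genes did. Neither passed with any other mouse left out, and without *Fmo5*-/- mouse 2 the log2 fold changes were 1.221 (edgeR adjusted p = 0.243) and 0.93 (adjusted p = 0.352). *Fmo5*-/- mouse 3 was also the lowest of its genotype in the sums of Kupffer, T and NK, and neutrophil markers given above, and the part of these cells in the difference was not tested. Of the stretches of read length, 94.7% of *Serpina3f* and 92.3% of *Serpina3g* occur in no other gene.

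**Figure D4:**
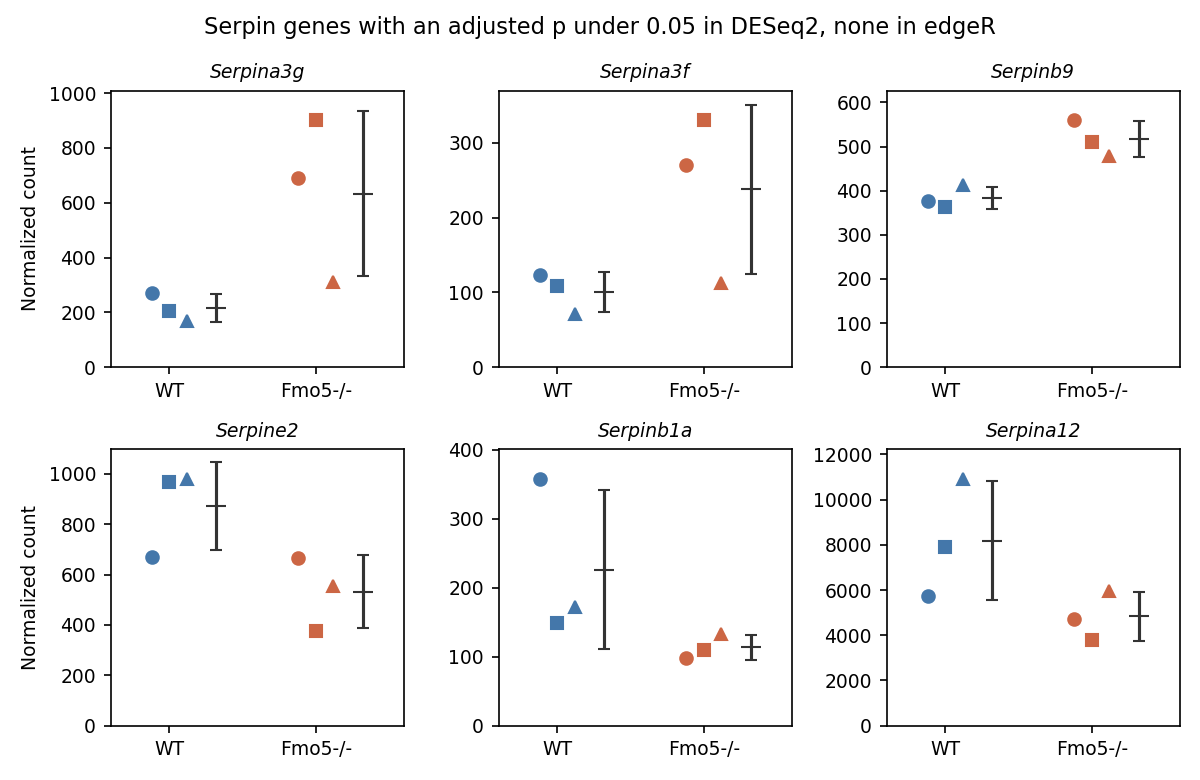
Normalized counts of the 6 members with an adjusted p under 0.05 in DESeq2, in WT and *Fmo5*-/- liver (points, one per mouse; circles, squares and triangles are mice 1, 2 and 3), with the mean and SD to the right. *Serpina3g* and *Serpinb9* do not overlap between the genotypes, whereas *Serpina3f* and *Serpina12* do.

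Of the 3 abundant *Serpina3* genes, none passed in DESeq2 or in edgeR with its filter on low counts; with every gene of at least 1 count kept, *Serpina3k* (edgeR adjusted p = 0.0223) and *Serpina3m* (adjusted p = 0.0394) did. *Serpina3k*, which encodes contrapsin-like plasma inhibitor, had normalized counts of 332658, 473829 and 444529 in WT and 282081, 302725 and 403428 in *Fmo5*-/- liver, which overlap (log2 fold change -0.34, SE 0.17, edgeR adjusted p = 0.297). It made up 27.6% to 33.1% of all serpin counts in WT and 21.9% to 28.1% in *Fmo5*-/- liver. *Serpina3m*, whose gene model begins at the same position and shares 60 exonic bases with it, had 10554, 9662 and 8874 against 8751, 7091 and 7783 counts. All *Fmo5*-/- values lay below the WT values (log2 fold change -0.30, SE 0.11, edgeR adjusted p = 0.148, DESeq2 adjusted p = 0.0841). *Serpina3n*, an acute-phase serpin, had 11064 to 13478 counts in WT and 11434 to 15196 in *Fmo5*-/- liver (log2 fold change 0.09, adjusted p = 0.734). *Serpina3c* and *Serpina3h* were tested at means under 30 counts, with adjusted p of 0.899 and 0.787. *Serpina3a*, *Serpina3b*, *Serpina3i* and *Serpina3j* were too low to test. Summed over all 11 *Serpina3* genes, the log2 ratio of the means was -0.32, beside a median of 0.09 over the 7 that were tested. Most of each sum was *Serpina3k*. The sums were 354720, 497331 and 465436 in WT and 307039, 323075 and 423124 in *Fmo5*-/- liver, and they overlapped.

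The hormone carriers did not pass in either tool. *Serpina6*, corticosteroid-binding globulin, had 12550, 8776 and 10207 counts in WT and 10075, 10234 and 10069 in *Fmo5*-/- liver (log2 fold change -0.05, 95% interval -0.34 to 0.23). *Serpina7*, thyroxine-binding globulin, is on the X chromosome and had a log2 fold change of -0.03 (95% interval -0.41 to 0.34). For both genes the WT mice spread more widely than the *Fmo5*-/- mice, by 1.43-fold and 1.55-fold against 1.02-fold and 1.06-fold.

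Of the other clade A genes, *Serpina12* (vaspin, a secreted serpin that inhibits kallikrein 7) had normalized counts of 5720, 7923 and 10929.9 in WT and 4738, 3810 and 5949 in *Fmo5*-/- liver. The highest *Fmo5*-/- mouse exceeded the lowest WT mouse. The log2 fold change was -0.76 (SE 0.26, 95% interval -1.39 to -0.13, edgeR adjusted p = 0.165, DESeq2 adjusted p = 0.00778), and it was the most abundant of the 6 members with an adjusted p under 0.05 in DESeq2. It lay between -0.96 and -0.49 with 1 mouse left out, the smallest change being that without WT mouse 3. *Serpina10*, which inhibits activated clotting factor X with protein Z as its cofactor, had a log2 fold change of -0.05 (adjusted p = 0.854) and *Serpina11* one of 0.18 (adjusted p = 0.623), with 40.8% of the exonic bases of the latter shared with another gene. *Serpina9*, known from germinal centre B cells, varied most of all tested members. It had 16.9, 154 and 44.0 counts in WT and 57.8, 147 and 271 in *Fmo5*-/- liver, a spread within genotypes at the 99.7th percentile of all genes tested, and the 95% interval of its fold change was -1.16 to 3.47 around 1.15 on the log2 scale. The sum of 5 B and plasma cell markers was 2.86 to 3.39 in WT and 3.67 to 4.68 in *Fmo5*-/- liver, and its part in these values was not tested.

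**Figure D5:**
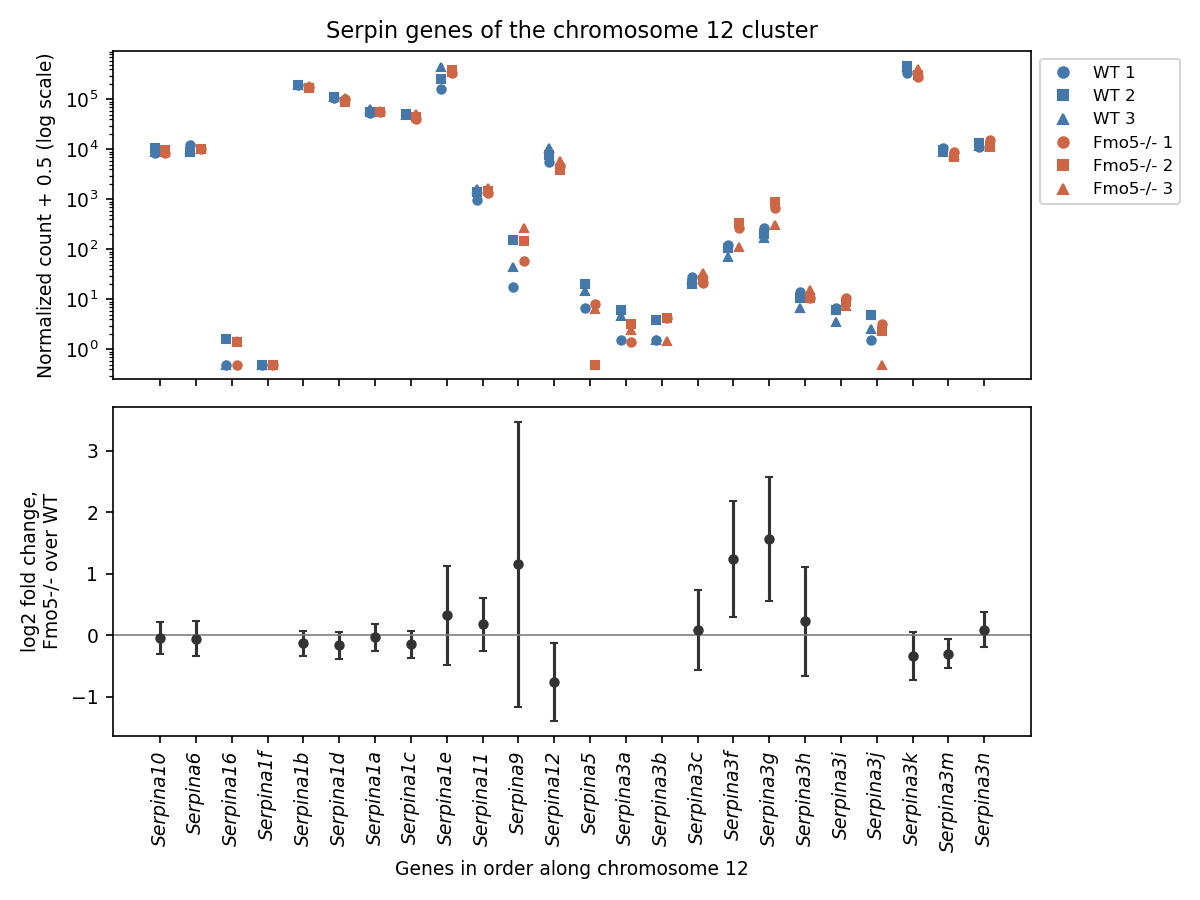
Serpin genes in their order along chromosome 12 (x axis), with normalized counts + 0.5 per liver on a log scale (upper panel) and log2 fold changes with 95% intervals for the tested genes (lower panel). Neighbours differ widely in level, and *Serpina3f* and *Serpina3g* stand side by side at 1.24 and 1.56.

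Of the 7 plasma inhibitors of clotting, fibrinolysis and complement, 6 were tested, and 1 of them, *Serpine2*, passed in DESeq2. Antithrombin (*Serpinc1*), the main inhibitor of thrombin and activated factor X, had normalized counts of 126505, 116408 and 131656 in WT and 115520, 100854 and 118713 in *Fmo5*-/- liver (log2 fold change -0.16, SE 0.10, edgeR adjusted p = 0.404). A share of 34.4% of its exonic bases is also exonic in *Zbtb37* on the other strand. Alpha-2-antiplasmin (*Serpinf2*) had 32389, 35079 and 37346 against 41874, 36879 and 38094 counts (0.16, SE 0.10, adjusted p = 0.386), and C1 inhibitor (*Serping1*), which controls complement and kallikrein, had 26390, 27642 and 29484 against 32802, 33429 and 27542 (0.17, SE 0.10, adjusted p = 0.387). In both, the values of the genotypes overlapped. Heparin cofactor II (*Serpind1*) had a log2 fold change of -0.07 (95% interval -0.26 to 0.12).

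*Serpine2*, protease nexin 1, inhibits thrombin and the plasminogen activators at cell surfaces. It had normalized counts of 669, 966 and 981 in WT and 664, 376 and 553 in *Fmo5*-/- liver. The groups did not overlap, but WT mouse 1 and *Fmo5*-/- mouse 1 were nearly equal. The log2 fold change was -0.72 (SE 0.23, 95% interval -1.25 to -0.18, edgeR adjusted p = 0.135, DESeq2 adjusted p = 0.0123), which is a 1.64-fold higher level in WT liver.

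Among the members with no known inhibitory role, *Serpinf1*, which encodes pigment epithelium-derived factor, had 25372, 24838 and 26474 counts in WT and 24237, 19718 and 22900 in *Fmo5*-/- liver, without overlap (log2 fold change -0.20, SE 0.10, edgeR adjusted p = 0.290). *Serpinh1*, or HSP47, the collagen chaperone of the endoplasmic reticulum, had 741, 719 and 1027 counts against 610, 1257 and 777 (0.09, SE 0.29, adjusted p = 0.892). *Fmo5*-/- mouse 2 was the highest for *Serpinh1* and also in the sum of 6 stellate cell markers, at 162 against 124 to 150 in the other mice. Of 21 genes of collagens and their processing, 0 passed in edgeR, 2 had an unadjusted p under 0.05 (21.8% of all genes did), both with a lower mean in *Fmo5*-/- liver, and 1 passed in DESeq2 (8.96% of all genes). The mean was higher in *Fmo5*-/- liver for 15 of the 21, beside 8500 of all 16734 genes tested, with a median log2 fold change of 0.15. *Serpini1*, neuroserpin, was tested at a mean of 11.4 counts (adjusted p = 0.904), and *Serpini2* had 0 counts.

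Most clade B genes had few counts, with 21 of its 27 members too low to test. *Serpinb9*, the inhibitor of granzyme B that protects lymphocytes from their own granules, had normalized counts of 376, 363 and 412 in WT and 560, 511 and 479 in *Fmo5*-/- liver. Its values were tight in both genotypes and did not overlap. The log2 fold change was 0.43 (SE 0.11, 95% interval 0.19 to 0.67, edgeR adjusted p = 0.0758, DESeq2 adjusted p = 0.0317), the smallest edgeR adjusted p of the family, and it stayed between 0.37 and 0.49 as 1 mouse at a time was left out. *Serpinb1a*, an inhibitor of neutrophil elastase and cathepsin G, had 358, 148 and 172 counts in WT and 97.8, 109 and 134 in *Fmo5*-/- liver. The groups did not overlap, and WT mouse 1 stood far above the others. The log2 fold change was -0.99 (SE 0.33, edgeR adjusted p = 0.140, DESeq2 adjusted p = 0.0178), and between -1.22 and -0.49 with 1 mouse left out, the smallest change being that without WT mouse 1. That mouse also had the highest WT sum of 6 neutrophil markers, 4.65 against 1.98 and 1.61. The neutrophil sum was higher in *Fmo5*-/- liver, where *Serpinb1a* was lower. The sum of 4 adipocyte markers was 1.18 in WT mouse 1 and 0.0162 to 0.197 in the other mice. Only 1 of these 4, *Cidea*, had enough counts to be tested, and whether adipocytes carried the sum was not tested. The part of these cells in *Serpinb1a* was not tested. *Serpinb6b*, at 113, 73.6 and 128 against 123, 203 and 182 counts, had a log2 fold change of 0.69 (SE 0.25, edgeR adjusted p = 0.164, DESeq2 adjusted p = 0.0923). *Serpinb6a*, *Serpinb8* and *Serpinb1c* had log2 fold changes of 0.27, -0.30 and -0.17, with adjusted p from 0.254 to 0.858, and 29.3% of the exonic bases of *Serpinb6a* overlap other genes. The sums of T and NK, Kupffer and neutrophil markers moved in the direction of *Serpinb9*, and their part in it was not tested.

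Of the 30 members that were not tested, 11 had 0 counts in all libraries, 11 had 1 to 10 counts in all, and 8 had more. The highest was *Serpina5*, protein C inhibitor, with 6, 18 and 14 raw counts in WT and 8, 0 and 6 in *Fmo5*-/- liver. *Serpinb10* had 2, 2 and 2 raw counts in WT and 8, 8 and 6 in *Fmo5*-/- liver, and *Serpina3i* 6, 5 and 3 against 11, 9 and 7. Both were picked after their counts had been seen. The genotypes did not overlap for either, but the counts are too few for a fold.

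Genes that act with the serpins were put into lists, chosen with earlier results of these data known. Of 16 genes for the folding, export and disposal of secreted glycoproteins such as alpha-1-antitrypsin, all 16 had a lower mean in *Fmo5*-/- liver. Over all 16734 genes tested, 8234 did. Of the 16, 3 fell in edgeR at an adjusted p under 0.05, a level that 1.37% of all genes passed. The count was 0 without *Fmo5*-/- mouse 1 and 1 without WT mouse 1. *Hspa5*, the chaperone BiP, had normalized counts of 65310, 64405 and 51425 in WT and 30378, 33711 and 30482 in *Fmo5*-/- liver (log2 fold change -0.94, SE 0.12, adjusted p = 0.00977). *Pdia4*, a disulfide isomerase, had a log2 fold change of -0.69 (SE 0.10, adjusted p = 0.0181). *Sel1l*, a scaffold for disposal of misfolded proteins, had one of -0.54 (SE 0.08, adjusted p = 0.0223). The values of the genotypes did not overlap for 12 of the 16, beside 27.4% of all genes, and the list's median was -0.34, beside 0.01 over all genes.

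Of 30 protease genes, listed as targets or likely targets of serpins, 26 were tested and 1 rose, beside 1.37% of all genes called. *Prtn3*, proteinase 3 of neutrophil granules, had normalized counts of 20.1, 15.6 and 24.5 in WT and 80.1, 68.8 and 48.1 in *Fmo5*-/- liver (log2 fold change 1.70, SE 0.29, edgeR adjusted p = 0.0355). No gene of the list passed with reads of 1 strand, nor in 5 of the 6 fits with 1 mouse left out. Without *Fmo5*-/- mouse 3, 4 did, in a fit in which 4.45% of all genes passed. DESeq2 gave an adjusted p under 0.05 for 4 of the list, all with a higher mean in *Fmo5*-/- liver, a direction that 4.75% of all genes took. The sums of neutrophil, T and NK, and Kupffer cell markers were higher in the *Fmo5*-/- mice, as given above, and their part was not tested. The counts of the next lists stand beside 21.8% of all genes with an unadjusted p under 0.05 and 8.96% that passed in DESeq2. Of 18 cofactors, receptors and ligands of serpins, 17 were tested, 0 passed in edgeR, 4 had an unadjusted p under 0.05 and 1 passed in DESeq2. Of 29 factors and receptors known to regulate serpin genes in liver, 0 passed in edgeR, 8 had an unadjusted p under 0.05 and 2 passed in DESeq2. Of 22 acute-phase genes, 0 passed in edgeR. An unadjusted p under 0.05 was found for 9, all with a higher mean in *Fmo5*-/- liver, as for 1944 of all 16734 genes tested. In DESeq2, 5 passed, all of them with a higher mean, a direction that 4.75% of all genes took. The median log2 fold change was 0.28 for the acute-phase genes and -0.02 for the regulators, beside 0.01 over all genes.

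Variation between mice of the same genotype differed among the members. The median SD of log2 normalized counts within a genotype was 0.27 over the 33 tested members and 0.18 over all genes tested. For 6 of the 33 it was above the 90th percentile of all genes: *Serpina9*, *Serpina3f*, *Serpina3g*, *Serpini1*, *Serpinb8* and *Serpinb1c*. At the other end, *Serpina1b* and *Serpind1* were at percentiles 1.95 and 4.78. Low counts raise this spread, and 2 of the 6, *Serpini1* and *Serpinb1c*, had mean normalized counts under 12.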

How the data were processed

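Livers of 3 WT and 3 *Fmo5*-/- mice were measured by RNA-seq. The authors clipped adapters from single reads of 75 bases, mapped them to mm10 with STAR and counted reads per gene, without regard to strand, and deposited these counts per library. The deposited signal columns of the comparison table are the same counts divided by 1 factor per library, and were used only to check this. That table's fold changes and p-values were not used. Reads that map to several places were left out by the counting. They made up 11.8% to 13.1% of a WT library and 10.4% to 11.5% of an *Fmo5*-/- library, without overlap. Unmapped reads (9.72% to 10.1% and 9.10% to 9.20%) and ambiguous reads (3.52% to 3.62% and 3.72% to 3.98%) did not overlap either. The part of these differences in the levels was not tested.

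Members and gene lists were chosen with earlier results of these data known. Genes were filtered with filterByExpr (minimum count 10), scaled by TMM and tested with the robust quasi-likelihood test of edgeR 4.0.16 in R 4.3.3, with Benjamini-Hochberg adjustment over 16734 genes. An adjusted p under 0.05 was the threshold. DESeq2 1.42.0 was an alternative. Nothing says how the mice are related, and p-values measure the spread between these mice. Named in full are members that passed in edgeR or DESeq2, those without overlap and with a mean of 500 or more, and the 10 highest per kilobase. Values of other members were added after they had been seen. Of the lists, only genes that passed in edgeR are named. Gene lengths are those of the RefSeq-linked principal transcript in GENCODE vM21, a choice made after a first length had been seen. Other settings were RLE factors, scaling without the 20 most abundant genes, at least 1 count, a mean of 500 set before the fit, reads of 1 strand, and each mouse left out. The steps were tested on simulated data, in which both edgeR and DESeq2 made a larger share of false calls than the threshold on the adjusted p allows. The values of 1 tested member are not reported here.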

Additional observations from a re-analysis of the deposited data

Results flagged for a closer look

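The rule on names left out 5 pseudogene symbols, and 2 of these had enough counts to be tested. *Serpina4-ps1*, on chromosome 12 between *Serpina12* and *Serpina5*, had normalized counts of 1905, 19696 and 6047 in WT and 1538, 3900.04 and 13987 in *Fmo5*-/- liver, with a mean of 7846. This is a 12.8-fold range over the 6 mice, and the spread within genotypes was at the 99.9th percentile of all genes tested, so that its log2 fold change of -0.51 had an SE of 1.21 (edgeR adjusted p = 0.855). Within each genotype the order of the mice was the same as for *Serpina9*. *Serpina3e-ps* had a mean of 41.7 (log2 fold change -0.50, SE 0.35, edgeR adjusted p = 0.450).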

How the results depend on the processing

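No paired analysis was made, because the genotypes consist of different mice and nothing in the labels pairs them. The count of members with an adjusted p under 0.05, 0 in edgeR, was 6 in DESeq2, 8 with every gene of at least 1 count (*Serpina3f*, *Serpina3k*, *Serpina3m*, *Serpina5*, *Serpinb1a*, *Serpinb6b*, *Serpinb9* and *Serpine2*, but not *Serpina3g*), 2 without *Fmo5*-/- mouse 3, so that leaving out 1 mouse gave 0 to 2, and 0 in the other settings. Among members with a mean of 500 or more it was 0, against 2 in DESeq2 and 3 with at least 1 count. Over all genes, 229 passed, against 1395 in DESeq2, 1989 with at least 1 count, 53 with a mean of 500 set before the fit, and 31 to 763 with 1 mouse left out, the lowest without *Fmo5*-/- mouse 1 and the highest without *Fmo5*-/- mouse 3. The cause was not tested. The members' median log2 fold change, -0.034, was 0.011 with a mean of 500 before the fit and from -0.052 to 0.033 with 1 mouse left out.

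Target proteases passed in 1 case, but 4 in DESeq2 and with at least 1 count, 0 with a mean of 500 before the fit and with reads of 1 strand, and 0 to 4 with 1 mouse left out, 4 without *Fmo5*-/- mouse 3 and 0 without each other mouse. Secretion and folding genes numbered 3, against 8 in DESeq2, 10 with at least 1 count and 0 to 4 with 1 mouse left out, with 0 without *Fmo5*-/- mouse 1 and 1 without WT mouse 1. Against 0, DESeq2 and at least 1 count gave 1 and 3 cofactors, 2 and 3 regulators, 5 and 5 acute-phase genes and 1 and 1 collagen genes. With 1 mouse left out, cofactors gave 0 to 1, acute-phase genes 0 to 3. *Serpina1a* turned from -0.037 to 0.026 with a mean of 500 before the fit, and lay between -0.082 and 0.056 with 1 mouse left out, above 0 without WT mouse 3. Low counts limit *Serpina3c*, *Serpina3h*, *Serpinb1c* and *Serpini1*.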
